A study of Mus musculus with 48 samples.

Results

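Type I interferon-stimulated genes were followed as a set of 40 named mouse genes among the 53345 genes of the expression matrices. The 40 genes were defined by name, from what is known of their response to interferon, and were chosen with earlier results of these data known. A share of the members set beside that of all tested genes is therefore a description. All 40 had a row in both matrices and passed the filter on low counts in each fit. By role the set held 4 regulators of the response (Irf7, Irf9, Stat2 and Usp18), 5 IFIT genes, 5 OAS genes, 3 RNA sensors, 16 other effectors, 3 genes of the PARP and DTX3L group and 4 PYHIN genes.

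RNA-seq had been performed on regulatory T cells (Tregs) and conventional T cells (Tcons) from the spleens of female C57BL/6 mice aged 8 to 12 weeks, with no disease model. Mice received an isotype control antibody or a blocking antibody to MHC class II (MHCII-Block), 500 µg in each of 2 intraperitoneal injections, on the day before and the day of IL-2 dosing. On the latter day they received PBS or 25 µg of WT IL-2, of the H16R mutein or of the 3x mutein subcutaneously, and spleens were taken on day 4. The 3 IL-2 molecules were human IL-2 fused to a human IgG1 Fc without effector function. H16R carries 1 named substitution and 3x carries several, and the study chose both for weaker signalling than WT IL-2. Each of the 8 Treg groups held 4 libraries and each of the 8 Tcon groups 2, and 16 mice gave both cell types. In the isotype WT group 2 Treg libraries carry the same mouse number in their labels and are named replicates 3a and 3b. They may come from 1 mouse and were fitted as 2 libraries, and counts with the pair summed, an alternative chosen after seeing the data, are given beside each contrast with that group. Tregs were the fraction bound to CD25 beads and Tcons the fraction that flowed through that selection, so a library is an enriched population. In such bulk samples fewer cells of a type and less RNA per cell cannot be told apart.

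Type I interferons (interferon alpha and beta) bind the receptor made of IFNAR1 and IFNAR2 on nearly every cell. The kinases JAK1 and TYK2 then activate STAT2, which acts with IRF9 in a complex that binds the interferon-stimulated response element in the promoters of target genes. The proteins made in response bind or degrade viral RNA, hold back viral budding and translation, and tune the signal itself. Many of these genes also respond to interferon gamma, which has a receptor of its own.

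The promoters of 5 members with large differences in the results are printed here, because this is where the interferon response element lies. RefSeq promoter windows on GRCm38.p6 were found for 31 of the 40 members. For Isg15, Ifit1, Ifit3 and Ifit3b the run covers base 200 to base 21 before the start site, and for Oas1a base 30 to base 1. Each is written 5′ to 3′ on the gene's own strand, and capitals mark every match to the core GAAANNGAAA on either strand, where N is any base and neighbouring matches may overlap.

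Isg15 (chr4:156200839-156201018, reverse strand): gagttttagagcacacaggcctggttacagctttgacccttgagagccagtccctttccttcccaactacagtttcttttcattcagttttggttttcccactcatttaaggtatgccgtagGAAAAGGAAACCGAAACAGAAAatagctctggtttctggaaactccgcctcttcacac

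Ifit1 (chr19:34640689-34640868, forward strand): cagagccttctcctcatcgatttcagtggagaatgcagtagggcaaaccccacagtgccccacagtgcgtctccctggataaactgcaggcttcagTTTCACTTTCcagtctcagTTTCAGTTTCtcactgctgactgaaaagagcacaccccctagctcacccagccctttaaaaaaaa

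Ifit3 (chr19:34583329-34583508, forward strand): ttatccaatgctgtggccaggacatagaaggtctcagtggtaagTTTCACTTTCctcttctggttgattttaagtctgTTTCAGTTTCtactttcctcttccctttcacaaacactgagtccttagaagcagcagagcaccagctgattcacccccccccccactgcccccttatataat

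Ifit3b (chr19:34607757-34607936, forward strand): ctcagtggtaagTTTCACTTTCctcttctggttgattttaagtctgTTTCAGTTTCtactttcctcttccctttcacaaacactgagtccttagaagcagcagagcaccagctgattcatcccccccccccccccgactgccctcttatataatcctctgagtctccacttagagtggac

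Oas1a (chr5:120907526-120907555, reverse strand): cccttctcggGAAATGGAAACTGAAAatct

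Isg15 held 3 matches in its run, and Ifit1, Ifit3, Ifit3b and Oas1a held 2 each. The Ifit3 and Ifit3b runs shared 119 unbroken bases. Since these genes are close copies, reads may have been divided between them in counting, and their separate values are uncertain. In windows from 250 bases before to 50 bases after the start, the core GAAANNGAAA was present in 23 of the 39 windows of these 31 members (59.0%), which belong to 20 genes, and in 3.44% of all 32851 windows. The core TTCNNNGAA, the form bound by STAT dimers, was present in 5 of the 39 (12.8%), of 5 genes, and in 8.3% of all windows. Bst2 and Oas1a held both. A match describes the letters and was not tested as a binding site.

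Several members lie side by side in the genome (GRCm38, GENCODE M21 annotation). The 5 IFIT genes lie between 34550694 and 34650009 on chromosome 19, with Ifit1 (ENSMUSG00000034459) at 34640871 to 34650009 and Ifit3 (ENSMUSG00000074896) at 34583531 to 34588731. Isg15 (ENSMUSG00000035692) lies at 156199424 to 156200818 on chromosome 4. The 5 OAS genes lie on chromosome 5 and the 4 PYHIN genes on chromosome 1. Parp9 and Dtx3l overlap on opposite strands of chromosome 16. Whether counting used strand is not stated, so their separate values are uncertain.

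Library totals were 18.28 to 51.24 M expected counts in Tregs (M, 1000000; median 40.7 M) and 31.31 to 51.95 M in Tcons (median 38.24 M), and 18.28 to 34.58 M in isotype PBS Tregs. Levels are given in CPM, counts per 1000000 counts of the library after scaling by trimmed mean of M values (TMM), and in FPKM, which is also divided by gene length, wherever genes are compared with each other. Foxp3, the defining transcription factor of Tregs, lay between 687 and 1249 CPM in Tregs and between 46.8 and 183 CPM in Tcons. Foxp3 was at 0 in no library. The summed CPM of 6 B cell markers was 567 in isotype PBS Treg replicate 1 (group median 125) and 533 in MHCII-Block WT Treg replicate 1 (group median 99.4). The summed CPM of 6 myeloid markers was 579 in the latter (group median 53.5) and 109 in the former (group median 25.7). Counts of the contrasts that these libraries belong to are given with and without them.

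**Figure D1:**
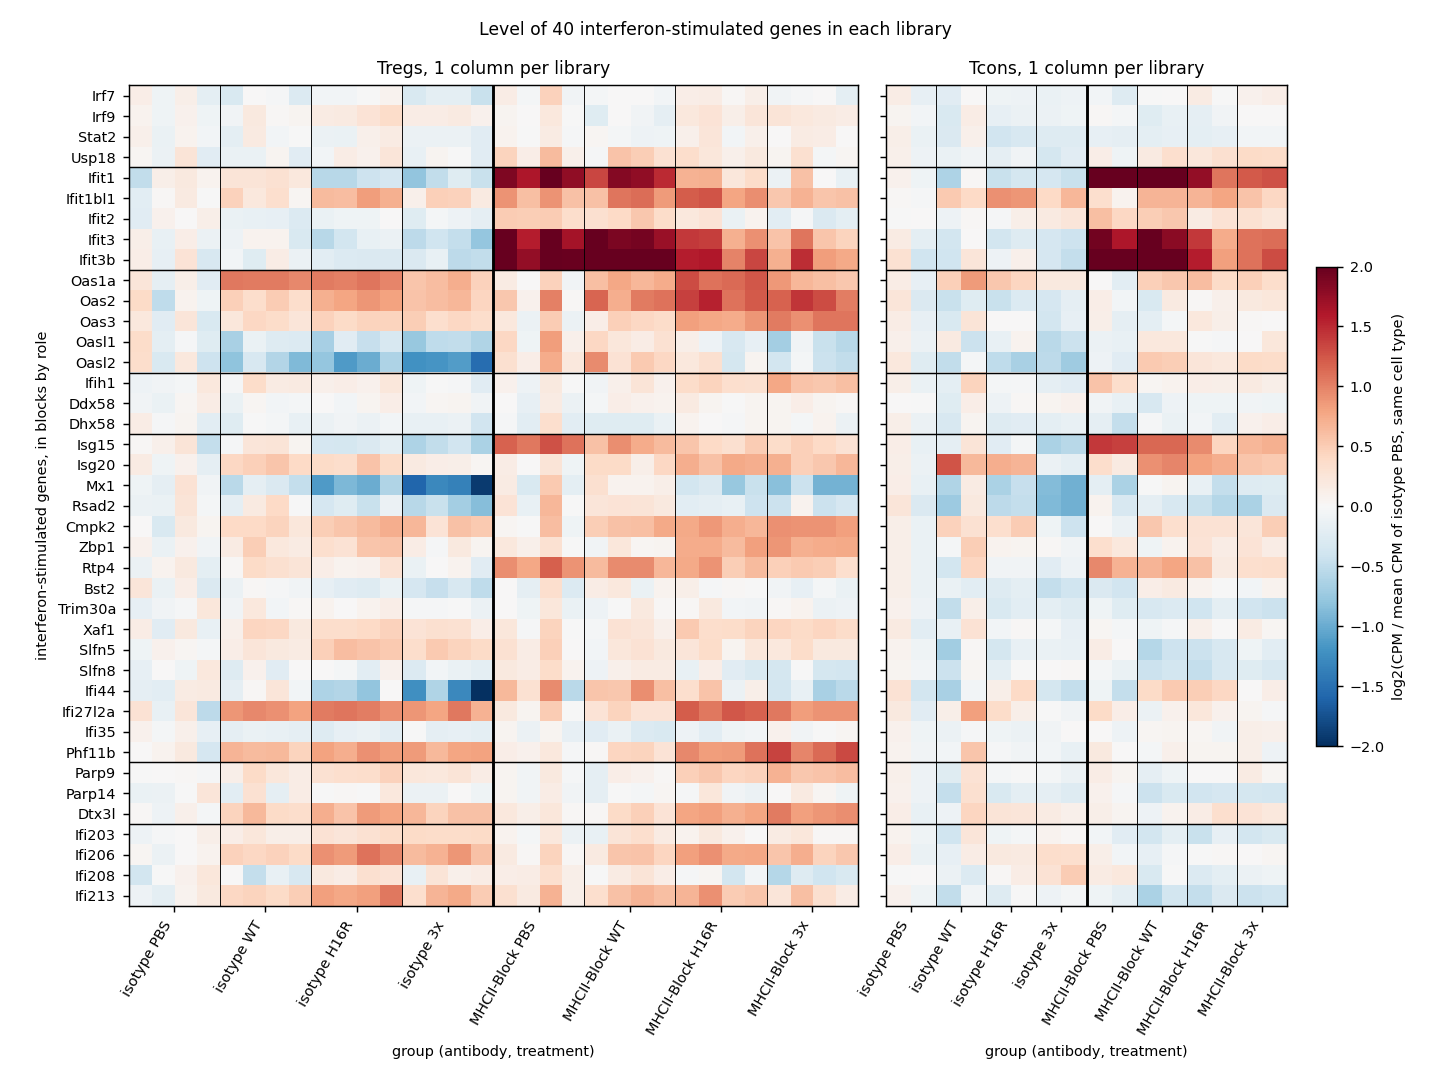
Level of each of the 40 genes (rows, in blocks by role) in each of the 48 libraries (columns, by group), as the log2 ratio of its CPM to the mean CPM of the isotype PBS libraries of the same cell type, with the colour scale limited to -2 to 2. Ifit1, Ifit3 and Ifit3b are raised in the MHCII-Block PBS and WT columns of both cell types, and Oas1a, Ifi27l2a and Phf11b are raised in the Treg columns of isotype mice given IL-2.

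In Tregs the medians of the members ran from 0.590 to 619 FPKM. Ifi27l2a, a small interferon-induced membrane protein gene, stood highest with a median of 619 FPKM over the 32 Treg libraries (243 to 801), clear of the next gene. Ifi203 followed at 99.5 FPKM (83.2 to 115) and Zbp1, a sensor of Z-form nucleic acid, at 73.4 FPKM (56.6 to 119), with overlapping ranges. Isg15, the ubiquitin-like modifier, was rank 5 with 51.7 FPKM (27.1 to 107). Ifit1, which binds RNA lacking the host cap, was rank 23 with 20.8 FPKM and a wide range (10.3 to 75.4). At the low end lay Ifit3b (1.95 FPKM, 0.937 to 7.95), Rsad2 (viperin, 1.74 FPKM, 1.04 to 3.10) and Ifi44 (0.590 FPKM, 0.143 to 1.25), and these ranges overlapped as well. The order in Tcons differed for Ifi208, a PYHIN gene, which had a median of 4.05 FPKM in Tregs (2.61 to 5.05) and 23.3 FPKM in Tcons (19.0 to 32.4).

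**Figure D2:**
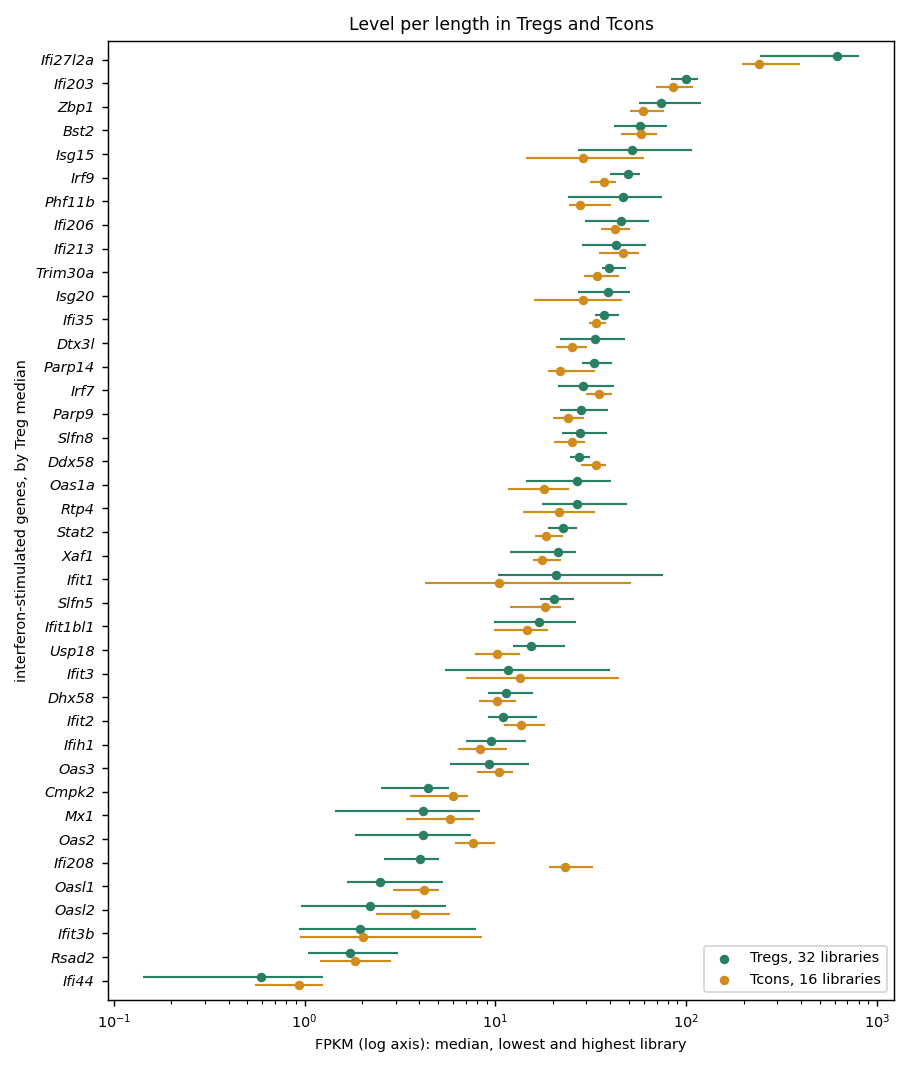
FPKM of each member (log axis) in the 32 Treg and 16 Tcon libraries, with the point at the median and the line from the lowest to the highest library. Ifi27l2a stands highest in both cell types (medians 619 and 241 FPKM), and the Treg and Tcon lines of Ifi208 lie apart.

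The first comparison asked what MHC class II blockade did to these genes in Tregs at each treatment. In PBS-treated mice the IFIT genes, Isg15 and Rtp4 were higher with the block. Ifit1 was 34.8, 53.1, 56.0 and 51.4 CPM in the 4 isotype mice and 178, 149.5, 199 and 166 CPM in the 4 MHCII-Block mice. Ifit3, a close relative of Ifit1, was 18.2, 15.3, 18.4 and 15.7 CPM with isotype and 68.7, 50.3, 68.0 and 53.3 CPM with the block. Isg15 was 33.6, 35.6, 39.7 and 23.9 CPM with isotype and 75.2, 68.9, 80.5 and 70.8 CPM with the block. For each of these 3 genes every MHCII-Block library lay above every isotype library.

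These differences were tested with edgeR's quasi-likelihood test over all 12392 tested genes, with a gene called at a Benjamini-Hochberg adjusted p under 0.1 (edgeR adjusted p from here on). Ifit1 rose by a log2 fold change of 1.83 ± 0.15 (SE, edgeR adjusted p = 7.57e-09) and Isg15 by 1.14 ± 0.10 (edgeR adjusted p = 1.47e-08). Rtp4, an interferon-induced receptor transporter protein, rose by 0.96 ± 0.10 (edgeR adjusted p = 6.23e-07), from 22.3 to 29.1 CPM to 43.5 to 58.3 CPM. All 5 IFIT genes were called, Ifit2 with the smallest rise (0.47 ± 0.07). In total 11 of the 40 members were called higher with the block (27.5%), where 6.00% of all tested genes were, and 0 lower, where 8.13% of all tested genes were. Of the members 0 were lower at an unadjusted p under 0.05, and DESeq2 called 0 lower as well. The median log2 fold change was 0.17 over the members and -0.01 over all tested genes.

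Of those 11 calls the 7 for Ifit1, Ifit1bl1, Ifit2, Ifit3, Ifit3b, Isg15 and Rtp4 remained under every alternative and without any 1 library. Those of Oas2 (0.45), Ifi213 (0.35), Usp18 (0.34) and Slfn5 (0.25) did not. The count was 7 without MHCII-Block PBS replicate 1 and also 7 without MHCII-Block PBS replicate 3. Without replicate 3 the values of the lost genes were 0.21 for Oas2, 0.21 for Ifi213, 0.23 for Usp18 and 0.16 for Slfn5. That library was the highest of its 4 in 38 of the 40 members. Without isotype PBS replicate 1, the library rich in B cell markers, 13 members were called higher and 0 lower.

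**Figure D3:**
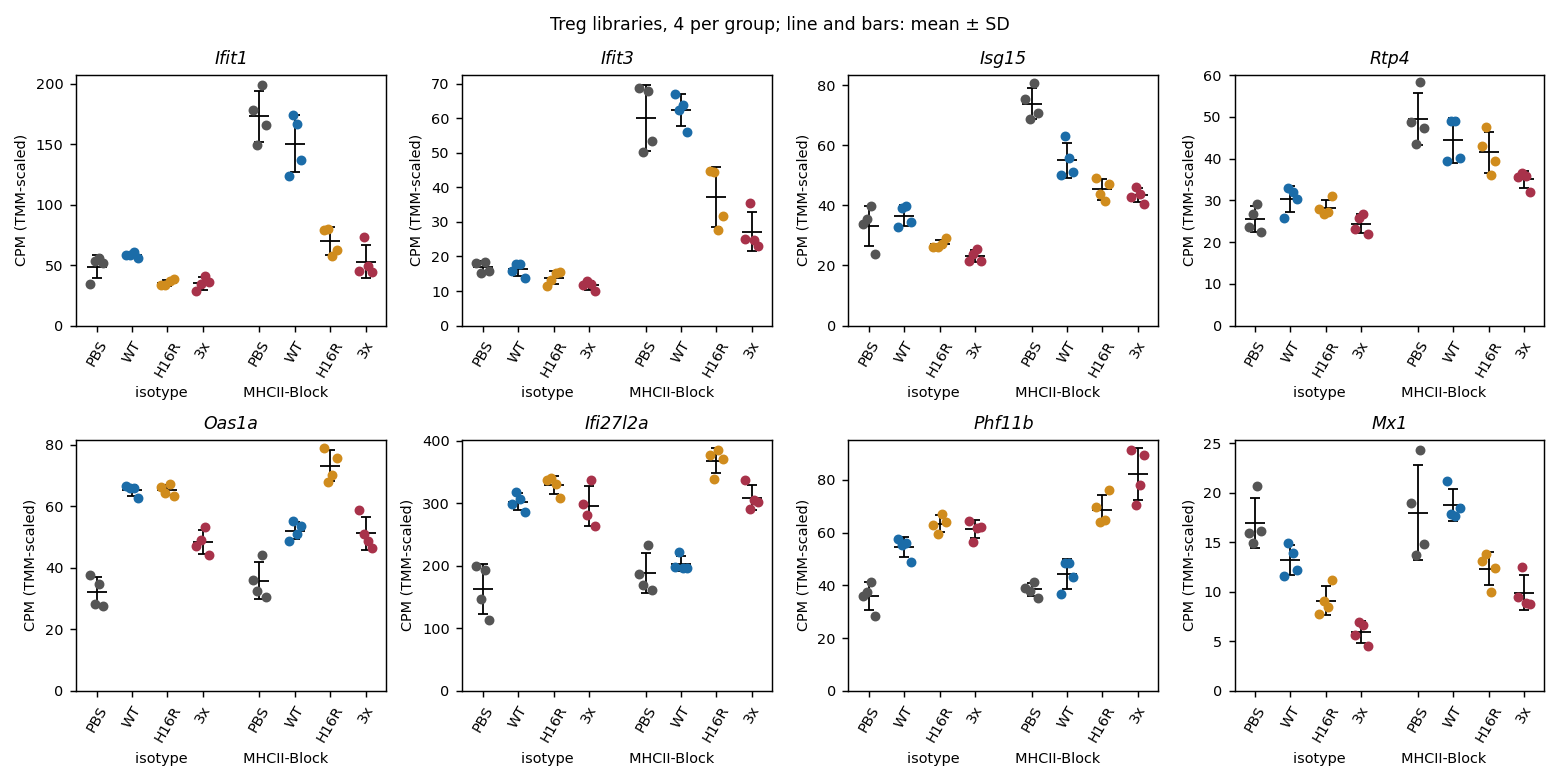
CPM of 8 members in every Treg library (points) by antibody and treatment, with the mean ± SD of each group of 4. Ifit1, Ifit3, Isg15 and Rtp4 have higher means with MHCII-Block than with isotype at each treatment, Oas1a, Ifi27l2a and Phf11b are higher with IL-2 in isotype mice, and Mx1 is low in isotype 3x mice (4.51 to 6.95 CPM).

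With IL-2 the block again went with higher levels of Isg15 and of the IFIT genes, except that Ifit2 was not called in 3x mice (-0.06). In WT mice Ifit1 was 58.5, 58.4, 60.6 and 56.3 CPM with isotype and 124, 174, 166 and 137 CPM with the block. In H16R mice it was 33.4, 33.4, 36.7 and 38.6 CPM with isotype and 79.0, 79.9, 57.4 and 62.8 CPM with the block. In 3x mice it was 28.4, 34.8, 41.3 and 35.8 CPM with isotype and 45.2, 73.2, 48.9 and 44.3 CPM with the block. In none of these treatments did the ranges overlap. Its log2 fold change with the block was 1.38 ± 0.15 in WT, 0.96 ± 0.15 in H16R and 0.57 ± 0.15 in 3x mice (edgeR adjusted p = 1.27e-07, 7.66e-05 and 0.00299).

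Isg15 likewise was 32.7, 39.3, 39.6 and 34.3 CPM in isotype and 50.0, 63.0, 55.7 and 51.2 CPM in MHCII-Block WT mice. It was 26.2, 26.1, 27.3 and 29.1 and 49.0, 43.8, 41.3 and 47.2 CPM in H16R mice, and 21.6, 23.7, 25.5 and 21.4 and 42.9, 46.2, 43.9 and 40.4 CPM in 3x mice. The MHCII-Block libraries were again the higher ones without overlap, with log2 fold changes of 0.61 ± 0.10, 0.73 ± 0.10 and 0.89 ± 0.10. Ifit3b, at a low level, was 2.68, 2.36, 3.08 and 2.57 CPM in isotype and 12.9, 14.2, 14.5 and 11.4 CPM in MHCII-Block WT mice, a rise of 2.33 ± 0.17 (edgeR adjusted p = 2.5e-10) without overlap. Ifit3 was 15.7, 17.8, 17.8 and 13.7 CPM and 67.1, 62.4, 63.9 and 56.0 CPM in the same groups, a rise of 1.96 ± 0.15, also without overlap.

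Whether the difference with the block depended on the IL-2 given was tested as an interaction, the change of a molecule from PBS with the block less the same change with isotype. For Ifit1 the interaction was -0.87 ± 0.21 for H16R and -1.26 ± 0.21 for 3x (edgeR adjusted p = 0.0101 and 9.31e-05), and for WT it was not called (-0.45). For 3x it was -0.62 ± 0.21 for Ifit3 and -0.84 ± 0.25 for Ifit3b (edgeR adjusted p = 0.0291 and 0.0126). These 3 genes thus differed less with the block in 3x mice than in PBS mice.

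The 4 treatments share no library, so calls could be counted across them. Ifit1, Ifit1bl1, Ifit3, Ifit3b, Oas2, Isg15 and Rtp4 were called higher with the block in all 4, and no member was called lower in all 4. The calls of Ifit1, Ifit3, Ifit3b, Isg15 and Rtp4 remained in each treatment under every alternative and without any 1 library. Those of Oas2 in PBS mice and of Ifit1bl1 in H16R and 3x mice did not. Ifit1bl1 was 0.29 in H16R mice without MHCII-Block replicate 1. In 3x mice it was 0.19 without isotype replicate 1, 0.23 without isotype replicate 4 and 0.23 without MHCII-Block replicate 2. Across the 4 treatments 29 members were called higher in at least 1 (72.5%, beside 42.2% of all tested genes) and 10 lower in at least 1 (25.0%, beside 41.9%). The 7 called higher in all 4 were 17.5% of the members, beside 0.412% of all tested genes. Ddx58, Dhx58, Trim30a, Xaf1, Slfn8, Parp14 and Ifi206 were called in none.

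In WT mice 15 of the 40 members were called higher with the block (37.5%, beside 18.2% of all tested genes) and 6 lower (15.0%, beside 15.3%). In H16R mice 15 were called higher (37.5%, beside 15.4%) and 3 lower (7.5%, beside 15.2%), and in 3x mice 23 higher (57.5%, beside 27.2%) and 4 lower (10.0%, beside 26.9%). Higher in WT mice were Ifit3b, Ifit3, Ifit1, Oasl2, Ifit1bl1, Ifi44, Oas2, Isg15, Oasl1, Ifit2, Rtp4, Mx1, Usp18, Ifi208 and Cmpk2, and lower Ifi27l2a, Oas1a, Phf11b, Zbp1, Parp9 and Irf9. Higher in H16R mice were Ifit3b, Ifit3, Ifit1, Oasl2, Isg15, Ifi44, Rtp4, Oas2, Mx1, Oas3, Ifit1bl1, Zbp1, Isg20, Ifih1 and Ifit2, and lower Ifi208, Slfn5 and Ifi203. Higher in 3x mice were Ifit3b, Ifit3, Oasl2, Isg15, Ifi44, Mx1, Ifih1, Zbp1, Oas2, Oas3, Ifit1, Rtp4, Isg20, Phf11b, Parp9, Cmpk2, Rsad2, Dtx3l, Bst2, Ifit1bl1, Stat2, Irf7 and Ifi35, and lower Ifi208, Ifi203, Ifi213 and Slfn5. The share called higher was above the background in each treatment and the share called lower at or under it. Total counts without TMM moved the background more than the members, with 11 higher and 0 lower (27.5% and 0%, beside 8.08% and 6.29%) in PBS, 16 higher and 3 lower (40.0% and 7.50%, beside 19.5% and 10.2%) in H16R and 24 higher and 3 lower (60.0% and 7.50%, beside 32.5% and 21.3%) in 3x mice. With only the groups compared in the fit PBS mice gave 7 higher and 0 lower (17.5% and 0%, beside 2.95% and 3.36%). Without MHCII-Block WT replicate 1, the library rich in B cell and myeloid markers, the WT counts were 16 higher and 3 lower. Of the 6 lower members Zbp1 (-0.15), Parp9 (-0.13) and Irf9 (-0.12) were then no longer called lower. With isotype WT replicates 3a and 3b summed 14 were higher and 6 lower. The calls lost in some setting were Cmpk2, Ifi44, Irf9, Parp9 and Zbp1 in WT, Ifi203, Ifi208, Ifi44, Ifit1bl1, Ifit2 and Mx1 in H16R and Ifi213, Ifi35, Ifit1bl1, Irf7, Rsad2 and Slfn5 in 3x mice.

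**Figure D4:**
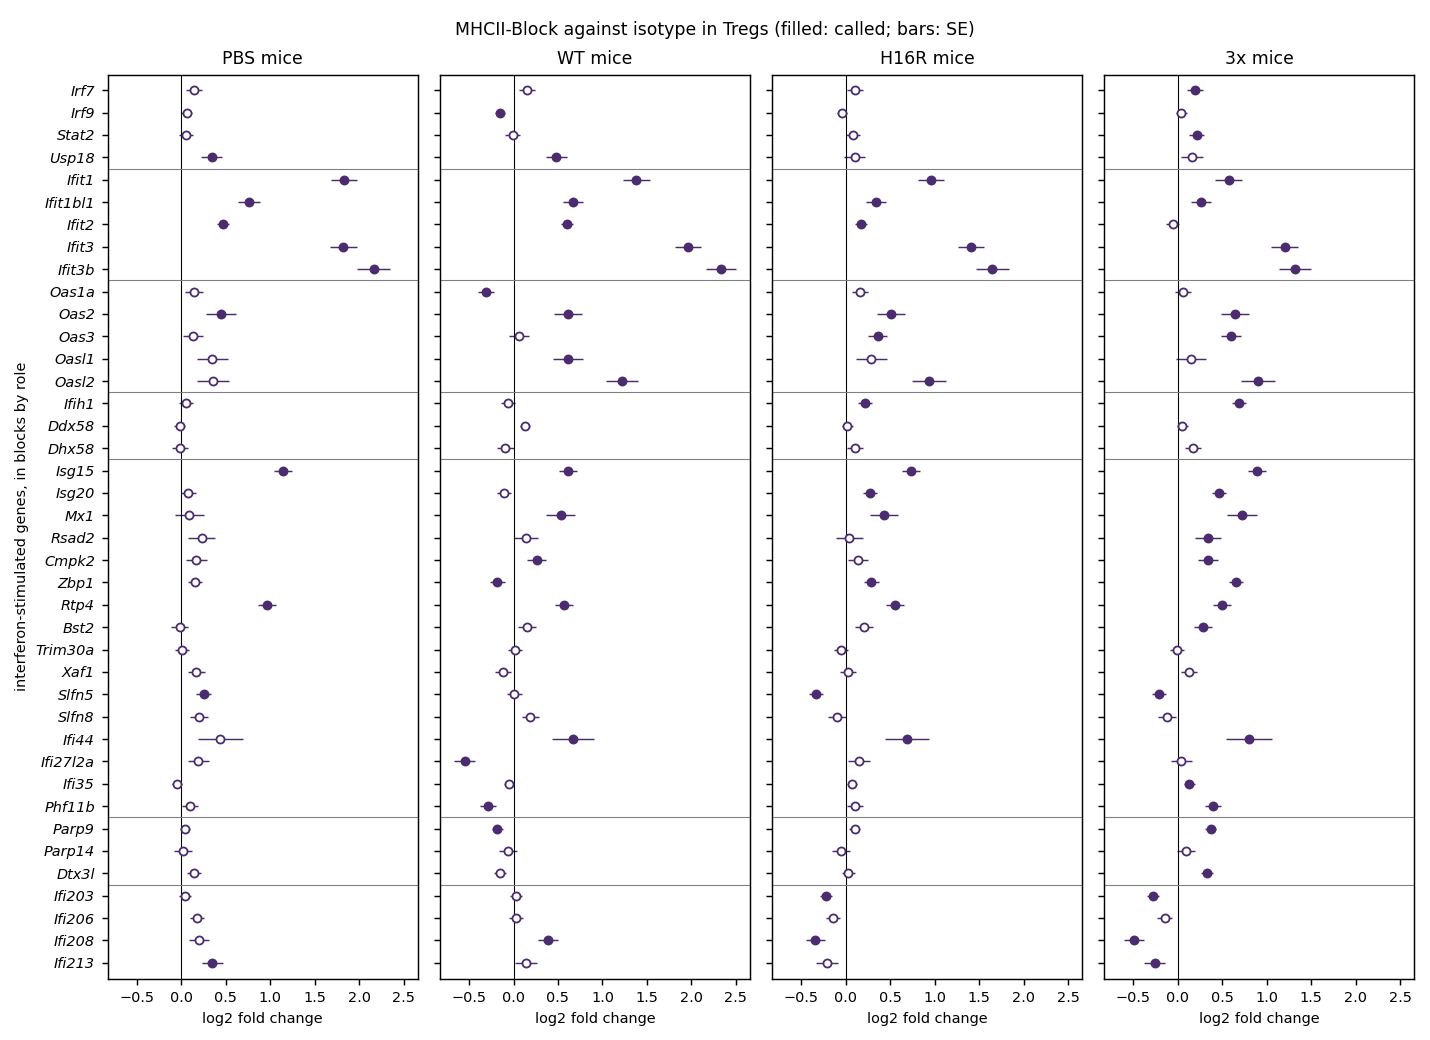
Log2 fold change with SE of each member in MHCII-Block against isotype Tregs, 1 panel per treatment, filled where the gene was called. Ifit3b stands farthest right in each panel (from 1.32 in 3x to 2.33 in WT mice), and Ifi203 and Ifi208 lie left of 0 in H16R and 3x mice.

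Among the OAS genes, which include the oligoadenylate synthetases that switch on RNA decay, Oasl2 differed most with the block in WT, H16R and 3x mice. It was 5.11, 7.15, 5.95 and 4.83 CPM in isotype WT mice and 17.1, 11.0, 12.8 and 11.9 CPM in MHCII-Block WT mice with no overlap, a rise of 1.22 ± 0.18 (edgeR adjusted p = 1.81e-05). It rose by 0.94 ± 0.19 in H16R and by 0.90 ± 0.19 in 3x mice. In PBS mice it was 6.72 to 11.4 and 9.81 to 14.9 CPM, which overlapped, and was not called (0.36). Oas1a was lower with the block in WT mice, at 62.6 to 66.4 CPM with isotype and 48.6 to 55.0 CPM with the block (-0.31 ± 0.09, edgeR adjusted p = 0.0141). Oas3 rose in H16R and 3x mice, by 0.36 ± 0.11 and 0.60 ± 0.11.

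Of the other effectors, Ifi27l2a was lower with the block in WT mice, at 299.6, 318, 308 and 286 CPM with isotype and 198, 222, 197 and 197 CPM with the block. The difference was -0.55 ± 0.12 (edgeR adjusted p = 0.000843) and the interaction for WT -0.75 ± 0.17 (edgeR adjusted p = 0.0026). In PBS, H16R and 3x mice it was not called (0.19, 0.15 and 0.04). Zbp1 rose by 0.29 ± 0.08 in H16R and 0.65 ± 0.08 in 3x mice, with an interaction of 0.50 ± 0.11 for 3x (edgeR adjusted p = 0.00165). Mx1, a dynamin-like antiviral GTPase, was 5.62, 6.95, 6.63 and 4.51 CPM in isotype 3x mice and 9.46, 12.5, 8.82 and 8.80 CPM in MHCII-Block 3x mice, with no overlap, a rise of 0.72 ± 0.17. Isg20, an exonuclease for single-stranded RNA, was 37.6, 36.5, 36.0 and 34.4 CPM in isotype 3x mice and 54.6, 46.2, 48.6 and 53.0 CPM with the block, a rise of 0.46 ± 0.08 with no overlap. Bst2, the tether that holds virions at the cell surface, was 39.2, 36.0, 39.5 and 34.5 CPM in isotype and 46.8, 44.1, 47.9 and 44.8 CPM in MHCII-Block 3x mice, without overlap, and rose by 0.28 ± 0.10.

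Of the RNA sensors, Ifih1 (MDA5) was 33.9 to 39.2 CPM in isotype and 57.6 to 67.5 CPM in MHCII-Block 3x mice, a rise of 0.69 ± 0.08 (edgeR adjusted p = 4.27e-08). Ddx58 (RIG-I) and Dhx58 (LGP2) were called in none of the 4 treatments. Of the regulators, Usp18, the protease that removes ISG15 and dampens the receptor, was 24.1, 24.1, 27.6 and 22.8 CPM in isotype and 26.1, 39.4, 37.2 and 32.9 CPM in MHCII-Block WT mice, a rise of 0.48 ± 0.12 (edgeR adjusted p = 0.00301). Stat2 was 93.8, 93.5, 93.4 and 86.7 CPM in isotype and 102, 113, 113 and 102 CPM in MHCII-Block 3x mice, a rise of 0.21 ± 0.08 (edgeR adjusted p = 0.0284). Irf7, the amplifying transcription factor of the response, was 63.5, 54.4, 63.1 and 50.7 CPM in isotype PBS mice and 64.3, 56.6, 80.2 and 55.2 CPM in MHCII-Block PBS mice, with overlap, and was not called (0.14). Irf9 was 123, 109, 124 and 109.9 and 121, 117, 135 and 116 CPM in the same groups and was not called (0.06). In 3x mice Parp9, an ADP-ribosyltransferase family gene, rose by 0.37 ± 0.06 and its partner Dtx3l, a ubiquitin ligase, by 0.33 ± 0.07.

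Of the 4 PYHIN genes, a family of DNA-binding proteins, Ifi203 and Ifi208 were called lower with the block in H16R mice and Ifi203, Ifi208 and Ifi213 in 3x mice. Ifi208 was 10.7, 14.2, 12.7 and 13.1 CPM in isotype 3x mice and 8.00, 9.87, 9.01 and 9.64 CPM in MHCII-Block 3x mice (-0.49 ± 0.11, edgeR adjusted p = 0.00057). In WT mice it was higher (0.39 ± 0.11). Its interaction was -0.54 ± 0.16 for H16R and -0.69 ± 0.15 for 3x (edgeR adjusted p = 0.0243 and 0.00153). Ifi203 was lower in 3x mice (-0.28 ± 0.07). In H16R mice Ifi203 was called at -0.22 and Ifi208 at -0.34, but the first was lost without MHCII-Block H16R replicate 4 (-0.19) and the second without MHCII-Block H16R replicate 3 (-0.26). Slfn5, of the Schlafen family, was lower in H16R mice (-0.33 ± 0.08).

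Markers of other cell types also moved with the antibody in Tregs of IL-2-treated mice. The 6 myeloid markers summed to 13.6 to 24.4 CPM in isotype and 26.0 to 579 CPM in MHCII-Block WT Tregs, to 13.6 to 16.8 and 33.1 to 68.4 CPM in H16R Tregs, and to 18.0 to 23.8 and 45.5 to 63.5 CPM in 3x Tregs. All 6 were measured, with S100a8 at 0 in 4 of the 32 Treg libraries and S100a9 in 1. Conventional dendritic cell markers summed to 7.61 to 10.7 and 21.3 to 84.2 CPM in WT, 3.76 to 5.38 and 18.9 to 29.4 CPM in H16R, and 5.52 to 7.58 and 19.3 to 27.0 CPM in 3x Tregs. In the same order B cell markers summed to 43.0 to 80.5 and 72.7 to 533 CPM, 26.6 to 34.7 and 42.8 to 75.6 CPM, and 24.4 to 31.9 and 49.2 to 111 CPM. NK cell markers summed to 10.8 to 15.2 and 26.2 to 41.6 CPM, 6.43 to 10.2 and 14.1 to 25.0 CPM, and 7.98 to 14.0 and 15.2 to 20.0 CPM. The 4 Treg markers summed to 3670.0 to 4197 and 2245 to 3203 CPM, 3970.0 to 4069 and 3479 to 3848 CPM, and 3881 to 4070.0 and 3755 to 4228 CPM. Apart from the B cell sums in WT mice and the Treg sums in 3x mice, the isotype and MHCII-Block ranges of these sums did not overlap. In 3x Tregs CD8 T cell markers (9.69 to 11.4 and 13.5 to 36.7 CPM) and erythroid markers (0.638 to 1.08 and 1.51 to 5.51 CPM) lay apart as well, whereas in WT and H16R Tregs they overlapped.

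The 4 markers of plasmacytoid dendritic cells, known producers of type I interferon, summed to 8.61 to 10.9 CPM in isotype and 20.6 to 22.6 CPM in MHCII-Block WT Tregs. They summed to 9.29 to 11.8 and 12.0 to 16.0 CPM in H16R Tregs and to 10.4 to 16.5 and 12.8 to 21.2 CPM in 3x Tregs. In PBS Tregs the sums with isotype and with the block were 15.8 to 23.3 and 18.4 to 19.9 CPM for plasmacytoid dendritic, 17.7 to 109 and 13.5 to 24.5 CPM for myeloid, 17.3 to 38.3 and 14.7 to 24.5 CPM for conventional dendritic, 103 to 567 and 49.5 to 124 CPM for B cell and 17.5 to 31.1 and 15.8 to 22.9 CPM for NK cell markers, each pair overlapping. The part of these markers in the differences with the block was not tested. Of the 4 plasmacytoid markers, Ccr9 made up most (8.07 to 22.0 CPM over the Treg libraries), Siglech stayed at or under 3.49 CPM and Klk1 was at 0 in 19 of 32. The Treg medians were 15.0 CPM for Ccr9, 0.330 CPM for Siglech and 0.185 CPM for Cox6a2. Treg sums of this list, here and below, thus follow mainly Ccr9 and cannot by themselves show how many plasmacytoid cells a library held.

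In Tcons the same leading genes were higher with the block. The comparison was made over the 4 treatments together, with treatment as a term. Ifit1 was 11.2 to 18.2 CPM in the 8 isotype libraries and 36.1 to 135 CPM in the 8 MHCII-Block libraries, with no overlap, a rise of 2.33 ± 0.19 (edgeR adjusted p = 2.54e-05). In PBS Tcons it was 18.2 and 16.2 CPM with isotype and 135 and 126 CPM with the block. Ifit3 rose by 1.71 ± 0.13, Ifit3b by 1.89 ± 0.20 and Isg15 by 1.15 ± 0.10. Of the 40 members 9 were called higher (22.5%, beside 13.8% of 12526 tested genes) and 3 lower (7.5%, beside 15.1%). Those higher were Ifit1, Ifit3b, Ifit3, Isg15, Rtp4, Oasl2, Usp18, Ifit2 and Oas2, and those lower Ifi203, Ifi213 and Slfn8. All 12 calls remained under every alternative and without any 1 library. Tregs and Tcons were fitted apart here, and the difference between them was not tested. Myeloid marker sums were 117 to 124 CPM in isotype and 34.5 to 34.6 CPM in MHCII-Block PBS Tcons, and 31.7 to 81.5 and 136 to 664 CPM in Tcons of IL-2-treated mice. Conventional dendritic cell marker sums were 86.7 to 118 and 30.8 to 31.0 CPM in PBS Tcons, and 42.3 to 85.8 and 127 to 207 CPM with IL-2. In PBS Tcons the sums with isotype and with the block were 782 to 860.0 and 118 to 128 CPM for B cell, 40.6 to 50.4 and 23.7 to 24.3 CPM for plasmacytoid dendritic, and 55.7 to 61.3 and 28.7 to 32.3 CPM for NK cell markers. With IL-2 they were 134 to 395 and 103 to 282 CPM, 29.0 to 56.9 and 34.2 to 44.6 CPM, and 53.1 to 93.7 and 66.8 to 132 CPM. So all 5 sums were lower with the block in PBS Tcons, and with IL-2 only the myeloid and conventional dendritic ranges lay apart, both higher. The part of these markers in the Tcon differences was not tested.

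The second comparison asked how each IL-2 molecule changed these genes in Tregs. Within an antibody arm the 3 molecules share their PBS libraries, so their values are set side by side and no overlap between them is read as a result. With isotype, Oas1a was 37.7, 28.4, 34.8 and 27.4 CPM in PBS mice. It was 66.4, 65.9, 66.0 and 62.6 CPM with WT, 66.0, 64.2, 67.3 and 63.4 CPM with H16R and 47.0, 49.0, 53.2 and 44.0 CPM with 3x. Every IL-2 library lay above every PBS library, and the rises were 1.01 ± 0.10, 1.02 ± 0.10 and 0.59 ± 0.10 (edgeR adjusted p = 2.55e-09, 8.02e-10 and 7.99e-06).

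Ifi27l2a was 199.5, 147, 193 and 114 CPM in isotype PBS mice, and 337, 341, 331 and 308 CPM with H16R. With WT it was 286 to 318 CPM and with 3x 264 to 338 CPM, and every IL-2 library lay above every PBS library. It rose by 0.88 ± 0.12, 1.01 ± 0.12 and 0.86 ± 0.12. Phf11b, an interferon-induced PHD-finger gene, was 36.0, 37.5, 41.2 and 28.5 CPM in PBS mice and 62.8, 59.5, 67.2 and 63.9 CPM with H16R. With WT it was 49.0 to 57.6 CPM and with 3x 56.4 to 64.6 CPM, again without overlap with PBS. It rose by 0.60 ± 0.09, 0.82 ± 0.09 and 0.78 ± 0.09. The PYHIN gene Ifi206 rose by 0.43 ± 0.08, 0.96 ± 0.08 and 0.72 ± 0.08. Dtx3l rose by 0.46 ± 0.08, 0.74 ± 0.08 and 0.58 ± 0.08, and Cmpk2, a mitochondrial nucleotide kinase, by 0.36 ± 0.11, 0.61 ± 0.11 and 0.53 ± 0.11.

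Other members were lower than in PBS mice. Mx1 was 15.9, 15.0, 20.7 and 16.2 CPM in isotype PBS mice and 11.6 to 14.9, 7.72 to 11.2 and 4.51 to 6.95 CPM with WT, H16R and 3x. It fell by 0.89 ± 0.16 with H16R and by 1.51 ± 0.17 with 3x on the log2 scale (edgeR adjusted p = 3.69e-05 and 1.68e-08). With WT it was called at -0.37, a call lost without isotype PBS replicate 3 (-0.26), isotype WT replicate 1 (-0.31) or isotype WT replicate 3b (-0.33). Oasl2 was lower with each molecule (-0.65 ± 0.19, -0.88 ± 0.19 and -1.25 ± 0.19). With 3x Ifi44, Rsad2, Isg15 and Bst2 were lower (-1.21 ± 0.27, -0.62 ± 0.15, -0.52 ± 0.10 and -0.40 ± 0.10). Ifit1 was lower with H16R and 3x (-0.45 ± 0.15 and -0.46 ± 0.15) and not called with WT (0.27). Of the regulators Irf9 was 129.9, 131, 141 and 149.5 CPM with H16R, against 123, 109, 124 and 109.9 CPM in PBS mice (0.25 ± 0.06), and Irf7 was lower with 3x (-0.28 ± 0.09). Stat2 was called against PBS in none of the 6 comparisons.

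With isotype, WT was called higher in 17 members and lower in 4 (42.5% and 10.0%, beside 26.0% and 26.2% of all tested genes). H16R was called higher in 18 and lower in 7 (45.0% and 17.5%, beside 31.4% and 32.8%), and 3x higher in 15 and lower in 13 (37.5% and 32.5%, beside 31.3% and 32.3%). The 3x share called lower was at the background, and the WT and H16R shares called lower were under it. WT was higher in Oas1a, Ifi27l2a, Phf11b, Dtx3l, Isg20, Ifi213, Ifi206, Oas2, Cmpk2, Oas3, Xaf1, Ifit1bl1, Zbp1, Rtp4, Parp9, Ifih1 and Slfn5, and lower in Oasl2, Mx1, Ifit2 and Ifi35. H16R was higher in Oas1a, Ifi27l2a, Ifi206, Ifi213, Phf11b, Oas2, Dtx3l, Ifit1bl1, Cmpk2, Slfn5, Zbp1, Oas3, Isg20, Xaf1, Parp9, Ifi203, Ifi208 and Irf9, and lower in Mx1, Oasl2, Ifit1, Oasl1, Isg15, Bst2 and Ifi35. Members higher with 3x were Ifi27l2a, Phf11b, Ifi206, Ifi213, Oas1a, Dtx3l, Oas2, Cmpk2, Slfn5, Oas3, Ifi203, Ifit1bl1, Xaf1, Parp9 and Irf9, and lower Mx1, Oasl2, Ifi44, Rsad2, Oasl1, Ifit3, Isg15, Ifit1, Bst2, Ifit3b, Irf7, Dhx58 and Ifi35. Of the 21, 25 and 28 calls 13, 21 and 24 remained under every alternative and without any 1 library. The calls lost in some setting were Ifih1, Ifit1bl1, Ifit2, Mx1, Oas2, Oas3, Rtp4 and Slfn5 for WT, Bst2, Ifi208, Isg15 and Oasl1 for H16R and Dhx58, Ifi35, Ifit3b and Irf9 for 3x. Without isotype PBS replicate 1 the counts were 13 higher and 5 lower with WT, 17 and 5 with H16R, and 16 and 11 with 3x. Scaling by total counts without TMM gave 14 higher and 6 lower (35.0% and 15.0%, beside 22.3% and 30.6%) with WT and 17 higher and 10 lower (42.5% and 25.0%, beside 24.8% and 39.7%) with H16R. With 3x that scaling gave 14 higher and 16 lower (35.0% and 40.0%, beside 25.0% and 38.4%), so the majority turned to lower. Summing isotype WT replicates 3a and 3b gave 17 higher and 3 lower with WT.

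Marker sums of other cell types were also compared with PBS in isotype Tregs. Those of conventional dendritic, B and NK cells were lower with each molecule without overlap, and those of CD8 T and erythroid cells overlapped. Plasmacytoid dendritic sums lay below PBS with WT (8.61 to 10.9 CPM) and H16R (9.29 to 11.8 CPM). With 3x they overlapped PBS (10.4 to 16.5 CPM). Myeloid sums lay below PBS with H16R (13.6 to 16.8 CPM). With WT (13.6 to 24.4 CPM) and 3x (18.0 to 23.8 CPM) they overlapped PBS. Conventional dendritic cell markers summed to 17.3 to 38.3 CPM with PBS and 3.76 to 10.7 CPM with the 3 molecules, B cell markers to 103 to 567 and 24.4 to 80.5 CPM, NK cell markers to 17.5 to 31.1 and 6.43 to 15.2 CPM, and plasmacytoid dendritic cell markers to 15.8 to 23.3 and 8.61 to 16.5 CPM. Myeloid markers summed to 17.7 to 109 and 13.6 to 24.4 CPM, CD8 T cell markers to 6.45 to 15.9 and 8.90 to 13.1 CPM, and erythroid markers to 0.524 to 2.76 and 0.638 to 5.88 CPM. The 4 Treg markers summed to 2449 to 3101 CPM with PBS and 3670.0 to 4197 CPM with IL-2. With the block, myeloid markers summed to 13.5 to 24.5 CPM with PBS and 26.0 to 579 CPM with IL-2, and Treg markers to 2608 to 2816 CPM with PBS, 2245 to 3203 CPM with WT and 3479 to 4228 CPM with the muteins. In the same MHCII-Block groups (PBS, WT, H16R and 3x) plasmacytoid dendritic cell markers summed to 18.4 to 19.9, 20.6 to 22.6, 12.0 to 16.0 and 12.8 to 21.2 CPM, above PBS with WT, below it with H16R and overlapping it with 3x. NK cell markers summed to 15.8 to 22.9, 26.2 to 41.6, 14.1 to 25.0 and 15.2 to 20.0 CPM, with WT alone apart from PBS. CD8 T cell markers summed to 7.29 to 8.97 CPM with PBS and 10.3 to 45.1 CPM with IL-2. Their part in the differences from PBS was not tested.

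**Figure D5:**
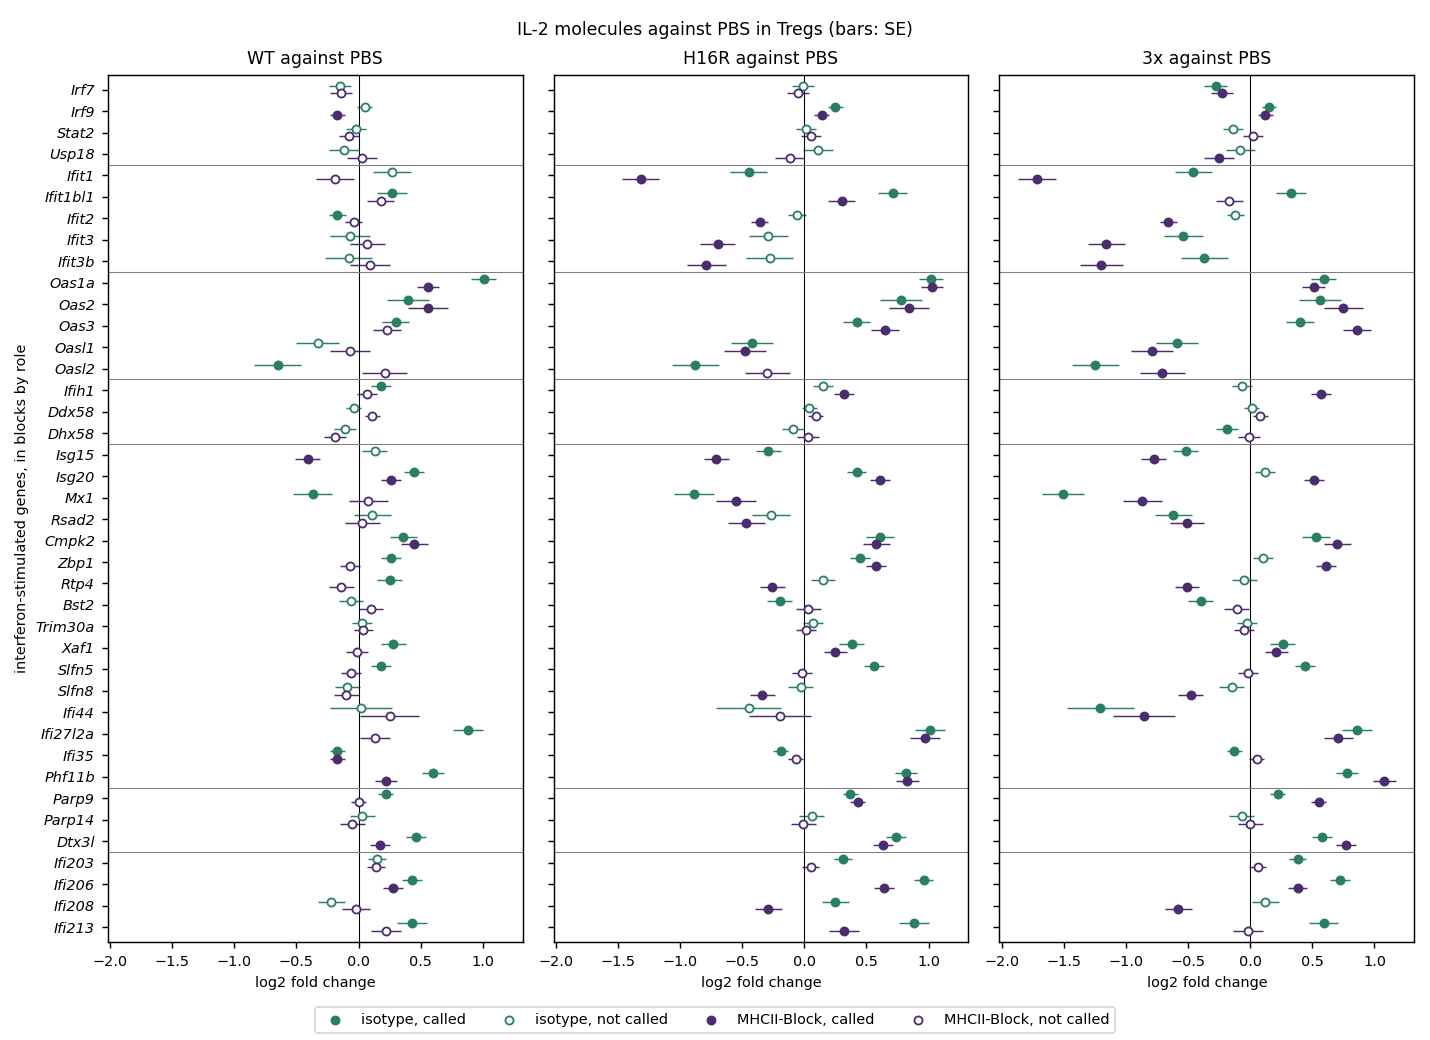
Log2 fold change with SE of each member against PBS in Tregs, 1 panel per molecule, with isotype and MHCII-Block values in each panel, filled where called. Oas1a and Phf11b lie right of 0 in every panel for both antibodies, and Ifit1 stands farthest left with the block under H16R (-1.32) and 3x (-1.72).

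In MHCII-Block mice WT was called higher in 7 members and lower in 3 (17.5% and 7.5%, beside 21.9% and 13.7%), both under the background. Oas2 was 14.7, 10.9, 20.4 and 10.3 CPM in PBS mice and 22.9, 16.9, 20.9 and 21.6 CPM with WT (0.56 ± 0.16, edgeR adjusted p = 0.00921), with PBS replicate 3 inside the WT range. Oas1a rose by 0.56 ± 0.09, and Isg15 fell by 0.41 ± 0.10 on the log2 scale. Ifi27l2a was 188, 169.7, 233 and 162 CPM in PBS mice and 198, 222, 197 and 197 CPM with WT, with overlap, and was not called (0.13). The higher calls were Oas2, Oas1a, Cmpk2, Ifi206, Isg20, Phf11b and Dtx3l, and the lower calls Isg15, Ifi35 and Irf9. Of the 10 calls 6 remained in every setting, and those of Dtx3l, Ifi206, Irf9 and Phf11b did not. Dtx3l, called at 0.17, was lost without MHCII-Block WT replicate 3 (0.11), among others, and Irf9 at -0.17 was lost without MHCII-Block PBS replicate 3 (-0.11) or MHCII-Block WT replicate 1 (-0.14) or 4 (-0.14). Phf11b at 0.22 was lost without MHCII-Block PBS replicate 1 (0.23) or 2 (0.21), among others. Without MHCII-Block WT replicate 1, the library rich in B cell and myeloid markers, the counts were 11 higher and 2 lower. No background is given for that setting, and the shares under the background above are those with all libraries. By total counts without TMM the counts were 5 higher and 4 lower (12.5% and 10.0%, beside 16.7% and 21.2%), a background with its majority lower.

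With the block H16R was called higher in 16 members and lower in 11 (40.0% and 27.5%, beside 32.7% and 33.8%), and 3x higher in 14 and lower in 15 (35.0% and 37.5%, beside 34.7% and 38.3%), so the 3x shares lay at the background. H16R was higher than PBS in Oas1a, Ifi27l2a, Oas2, Phf11b, Oas3, Ifi206, Dtx3l, Isg20, Zbp1, Cmpk2, Parp9, Ifih1, Ifi213, Ifit1bl1, Xaf1 and Irf9, and lower in Ifit1, Ifit3b, Isg15, Ifit3, Mx1, Oasl1, Rsad2, Ifit2, Slfn8, Ifi208 and Rtp4. With 3x the higher members were Phf11b, Oas3, Dtx3l, Oas2, Ifi27l2a, Cmpk2, Zbp1, Ifih1, Parp9, Isg20, Oas1a, Ifi206, Xaf1 and Irf9, and the lower Ifit1, Ifit3b, Ifit3, Mx1, Ifi44, Oasl1, Isg15, Oasl2, Ifit2, Ifi208, Rtp4, Rsad2, Slfn8, Usp18 and Irf7. Ifi27l2a was 339 to 385 CPM with H16R and 291 to 337 CPM with 3x, rises of 0.97 ± 0.12 and 0.71 ± 0.12. Phf11b rose by 0.83 ± 0.09 and 1.08 ± 0.09, Oas1a by 1.03 ± 0.09 and 0.51 ± 0.09, and Oas3 by 0.65 ± 0.11 and 0.86 ± 0.11. With isotype Oas3 rose by 0.42 ± 0.11 and 0.40 ± 0.11, so each of these 4 genes was called higher with both muteins in either arm.

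Ifit1, Ifit2, Ifit3, Ifit3b and Isg15, high in MHCII-Block PBS mice, were lower there with either mutein. Ifit1 fell by 1.32 ± 0.15 with H16R and by 1.72 ± 0.15 with 3x on the log2 scale (edgeR adjusted p = 1.94e-08 and 7.98e-11), and was not called with WT (-0.19). Ifit3 fell by 0.70 ± 0.14 and 1.16 ± 0.15, Ifit2 by 0.36 ± 0.07 and 0.66 ± 0.07, and Isg15 by 0.71 ± 0.10 and 0.78 ± 0.10. Ifit1bl1, the remaining IFIT gene, rose by 0.30 ± 0.11 with H16R and was not called with 3x (-0.17), and the former call was lost without MHCII-Block H16R replicate 2 (0.22). Of the 27 and 29 calls 20 and 25 remained under every alternative and without any 1 library, and those lost were Ifi208, Ifi213, Ifit1bl1, Irf9, Oasl1, Rtp4 and Xaf1 with H16R and Irf7, Irf9, Usp18 and Xaf1 with 3x. The lower call of Irf7 with 3x (-0.23) was lost without MHCII-Block PBS replicate 3 (-0.10), as was that of Oasl1 with H16R (-0.48 and -0.27).

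The interaction with antibody was called higher in 1 member and lower in 9 for WT (beside 11.7% and 7.98% of all tested genes, or 2.5% and 22.5% of members). It was called higher in 0 and lower in 10 for H16R (0.0% and 25.0%, beside 10.6% and 8.47%), and higher in 8 and lower in 12 for 3x (20.0% and 30.0%, beside 20.3% and 18.7%). For H16R 1 member, Oasl2, was higher at an unadjusted p under 0.05, and DESeq2 called 0 higher. The lower share thus exceeded the background for each molecule. For WT the calls of Oasl2 (0.86 ± 0.26), Ifi27l2a, Isg15 (-0.53 ± 0.14) and Oas1a (-0.45 ± 0.13) remained in every setting. The calls lost were Dtx3l, Irf9, Parp9, Phf11b, Rtp4 and Zbp1. The WT count was 8 with replicates 3a and 3b summed, and 5 without isotype WT replicate 2 or without MHCII-Block WT replicate 1. For H16R those of Ifit1, Ifi208, Ifi213 (-0.56 ± 0.17) and Slfn5 (-0.58 ± 0.11) remained. The H16R count of 10 was 6 without isotype PBS replicate 1 or MHCII-Block PBS replicate 1, 5 without MHCII-Block H16R replicate 3 or 4, and 4 without isotype H16R replicate 4. Without isotype PBS replicate 1 the WT interaction again held 1 higher and 9 lower, and the 3x interaction 6 higher and 11 lower. For 3x 16 of the 20 calls remained, with all 5 IFIT genes lower and Ifih1 (0.64 ± 0.11), Mx1 (0.64 ± 0.23), Zbp1, Oas3, Isg20 and Parp9 higher.

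The third comparison set the muteins against WT IL-2 at the same dose and time. With isotype H16R was called higher than WT in 7 members and lower in 4 (17.5% and 10.0%, beside 8.87% and 9.76% of all tested genes). With only these 2 groups in the fit the counts were 13 higher and 5 lower (32.5% and 12.5%, beside 9.89% and 11.6%), and by total counts without TMM 7 higher and 4 lower (17.5% and 10.0%, beside 5.53% and 12.9%). With WT replicates 3a and 3b summed 7 were higher and 3 lower. In the joint fit of all Treg groups the counts were 10 higher and 4 lower without MHCII-Block WT replicate 1, and 8 and 4 without isotype PBS replicate 1. Of the 11 calls 8 remained in every setting, and those of Irf9, Mx1 and Rsad2 did not. Ifi206 was higher with H16R (0.53 ± 0.08, edgeR adjusted p = 0.00019) and Ifit1 lower (-0.71 ± 0.15, edgeR adjusted p = 0.0029), as was Isg15 (-0.42 ± 0.10). Oas1a was 62.6 to 66.4 CPM with WT and 63.4 to 67.3 CPM with H16R, which overlapped, and the difference was not called (0.01 ± 0.09). The higher members with H16R were Ifi206, Ifi208, Ifi213, Ifit1bl1, Slfn5, Dtx3l and Irf9, and the lower Ifit1, Mx1, Isg15 and Rsad2. With 3x 4 members were higher than with WT and 12 lower (10.0% and 30.0%, beside 16.9% and 17.7%). The 3x calls all remained under every alternative and without any 1 library. The count with replicates 3a and 3b summed was again 16. Those higher were Ifi208, Ifi206, Slfn5 and Ifi203, and those lower Ifi44, Mx1, Rsad2, Ifit1, Isg15, Oasl2, Ifit3, Oas1a, Bst2, Isg20, Rtp4 and Ifih1. Mx1 (-1.14 ± 0.16), Ifi44 (-1.23 ± 0.26) and Ifit1 (-0.72 ± 0.15) were among the lower ones. Marker sums of other cell types moved with these contrasts. With WT, H16R and 3x in that order, B cell markers summed to 43.0 to 80.5, 26.6 to 34.7 and 24.4 to 31.9 CPM, and conventional dendritic cell markers to 7.61 to 10.7, 3.76 to 5.38 and 5.52 to 7.58 CPM, with the WT libraries above every mutein library. NK cell markers summed to 10.8 to 15.2, 6.43 to 10.2 and 7.98 to 14.0 CPM, with WT above H16R and overlapping 3x. Erythroid markers, at low levels, summed to 1.63 to 5.88, 1.67 to 2.00 and 0.638 to 1.08 CPM, with WT above 3x and overlapping H16R. Their part in the differences from WT was not tested.

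In MHCII-Block mice H16R was called higher than WT in 13 members and lower in 11 (32.5% and 27.5%, beside 25.5% and 32.0%), and 3x higher in 13 and lower in 17 (32.5% and 42.5%, beside 30.0% and 38.7%). These shares lay near the background. With H16R the higher members were Ifi27l2a, Zbp1, Phf11b, Oas1a, Dtx3l, Parp9, Oas3, Ifi206, Isg20, Irf9, Xaf1, Ifih1 and Dhx58, and the lower Ifit1, Ifit3b, Ifit3, Mx1, Oasl2, Rsad2, Oasl1, Ifit2, Isg15, Ifi208 and Slfn8. With 3x they were Phf11b, Zbp1, Oas3, Dtx3l, Ifi27l2a, Parp9, Ifih1, Irf9, Isg20, Cmpk2, Xaf1, Ifi35 and Dhx58 on the higher side and Ifit1, Ifit3b, Ifit3, Ifi44, Mx1, Oasl2, Oasl1, Ifit2, Ifi208, Rsad2, Isg15, Slfn8, Rtp4, Ifit1bl1, Usp18, Ifi213 and Bst2 on the lower. Ifit1 was lower than with WT (-1.13 ± 0.15 with H16R and -1.53 ± 0.15 with 3x, edgeR adjusted p = 1.13e-06 and 2.53e-09), as was Ifit3 (-0.77 ± 0.14 and -1.23 ± 0.14). Zbp1 was higher (0.65 ± 0.08 and 0.68 ± 0.08), as were Phf11b (0.61 ± 0.09 and 0.87 ± 0.09) and Ifi27l2a (0.83 ± 0.12 and 0.57 ± 0.12). Of the 24 calls with H16R 19 remained in every setting, without those of Ifi208, Oasl1, Oasl2, Slfn8 and Xaf1, and of the 30 with 3x 24, without those of Bst2, Cmpk2, Dhx58, Ifi213, Usp18 and Xaf1. For Ifi27l2a the WT libraries lay below every mutein library. Without MHCII-Block WT replicate 1 the counts were 15 higher and 11 lower with H16R, and 10 and 17 with 3x. With the block the Treg markers summed to 2245 to 3203 CPM with WT and 3479 to 4228 CPM with the muteins, and NK cell markers to 26.2 to 41.6 and 14.1 to 25.0 CPM, both without overlap. Myeloid markers summed to 26.0 to 579 and 33.1 to 68.4 CPM, and B cell markers to 72.7 to 533 and 42.8 to 111 CPM, with overlap. Plasmacytoid dendritic cell markers summed to 20.6 to 22.6 CPM with WT, 12.0 to 16.0 CPM with H16R, which lay apart, and 12.8 to 21.2 CPM with 3x, which overlapped. Their part in these differences was likewise not tested.

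In Tcons the molecules were compared with PBS over both antibody arms, in a fit that takes each change as equal in the 2 arms. Whether it differed between arms was not tested, and opposite changes would average out. With WT 4 members were called higher and 3 lower (10.0% and 7.5%, beside 14.8% and 12.4% of all tested genes), with H16R 4 and 6 (10.0% and 15.0%, beside 16.2% and 14.9%), and with 3x 2 and 3 (5.0% and 7.5%, beside 4.71% and 5.17%). With all libraries fitted the shares with WT were under the background. Without isotype WT replicate 2 the WT count was 14, and no background is given for that setting, so the reading does not extend to it. The calls that remained in every setting were few, 4, 4 and 2 of 7, 10 and 5. Lost in some setting were Cmpk2, Ifi213 and Slfn8 with WT, Cmpk2, Ifit3, Isg15, Parp14, Slfn5 and Slfn8 with H16R and Ifit1, Oas1a and Rsad2 with 3x. The higher calls were Isg20, Oas1a, Ifit1bl1 and Cmpk2 with WT, Ifit1bl1, Isg20, Oas1a and Cmpk2 with H16R and Ifit1bl1 and Oas1a with 3x. The lower calls with WT were Slfn5, Ifi213 and Slfn8, with H16R Ifit1, Ifit3, Isg15, Slfn5, Parp14 and Slfn8, and with 3x Ifit1, Isg15 and Rsad2. Oas1a rose by 0.64 ± 0.10 with WT and by 0.54 ± 0.10 with H16R (edgeR adjusted p = 0.00241 and 0.0043).

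Marker sums also moved with these Tcon contrasts. Erythroid markers summed to 2.22 to 7.19 CPM in PBS Tcons, 11.6 to 200.0 CPM with WT and 16.6 to 42.5 CPM with H16R, without overlap with PBS, and to 2.09 to 26.4 CPM with 3x, with overlap. With isotype, B cell markers summed to 782 to 860.0 CPM with PBS and 134 to 395 CPM with IL-2, and the myeloid and conventional dendritic sums given above were likewise lower with IL-2. With the block, CD8 T cell markers summed to 6.76 to 7.37 CPM with PBS and 16.0 to 73.1 CPM with IL-2, and the myeloid, conventional dendritic, plasmacytoid dendritic and NK sums were likewise higher. Their part in these differences was not tested.

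The Tcon counts moved with single libraries. The 7 calls with WT were 4 without isotype WT replicate 1, MHCII-Block PBS replicate 1 or MHCII-Block WT replicate 1, and 14 without isotype WT replicate 2. The 10 with H16R were 4 without MHCII-Block PBS replicate 1, 5 without isotype H16R replicate 1, 6 without MHCII-Block H16R replicate 2 and 16 without isotype WT replicate 2. The 5 with 3x were 2 without MHCII-Block 3x replicate 1, 3 without MHCII-Block 3x replicate 2 or MHCII-Block PBS replicate 1, 9 without isotype WT replicate 1 and 10 without isotype WT replicate 2. Isotype WT replicate 2 held the highest summed level of 4 Treg markers among the Tcons, 1331 CPM against 646 CPM or less in the others.

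The fourth comparison set Tregs against Tcons of the same mouse. Ifi208 was 9.23 to 15.0 CPM in PBS Tregs and 68.3 to 79.0 CPM in PBS Tcons, a log2 difference of -2.64 ± 0.12 over the 4 PBS mice with both (edgeR adjusted p = 4.48e-11). Oas2 was lower in Tregs (-1.52 ± 0.14), and Usp18 (0.73 ± 0.09) and Ifi27l2a (0.66 ± 0.12) were higher. Isg15 was called at 0.87, a call lost in the fit without the mouse block (0.81). Ifit1 was called at 0.80, but not without isotype PBS mouse 1 (0.75) or mouse 2 (0.52), or without the mouse block (0.51). In all, 14 members were higher and 7 lower in Tregs of PBS mice (35.0% and 17.5%, beside 21.7% and 22.9% of 12844 tested genes). The higher ones were Isg15, Ifit1, Usp18, Isg20, Ifi27l2a, Oas1a, Ifit1bl1, Ifi35, Rtp4, Parp14, Irf9, Dhx58, Stat2 and Bst2, and the lower ones Ifi208, Oas2, Cmpk2, Ifi213, Oas3, Ddx58 and Ifi206. Of the 21 calls 16 remained in every setting, 9 higher and 7 lower, and those of Bst2, Ifit1, Ifit1bl1, Isg15 and Rtp4 did not. Bst2 was called at 0.15, Ifit1bl1 at 0.46 and Rtp4 at 0.32. Without MHCII-Block PBS mouse 1 the first was 0.11 and the second 0.34, without MHCII-Block PBS mouse 2 they were 0.13 and 0.35, and without the mouse block Rtp4 was 0.33, none of them called.

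In IL-2-treated mice 24 members were higher and 10 lower in Tregs (60.0% and 25.0%, beside 40.1% and 38.0%), and all of these calls remained under every alternative and without any 1 mouse. Higher were Ifi27l2a, Ifit1, Phf11b, Isg15, Oas1a, Parp14, Usp18, Isg20, Dtx3l, Zbp1, Irf9, Rtp4, Slfn5, Parp9, Ifi203, Ifih1, Stat2, Xaf1, Trim30a, Slfn8, Ifi206, Ifit1bl1, Ifi35 and Dhx58, and lower Ifi208, Oasl2, Oasl1, Ifi44, Oas2, Mx1, Cmpk2, Irf7, Ifit2 and Ddx58. Ifi27l2a was higher (1.43 ± 0.07), as were Ifit1 (1.06 ± 0.17), Phf11b (0.89 ± 0.09) and Oas1a (0.79 ± 0.05), whereas Ifi208 (-2.53 ± 0.07) and Oasl2 (-0.72 ± 0.09) were lower. The log2 difference of Tregs from Tcons was shifted up with IL-2 in 19 members and down in 3 (47.5% and 7.5%, beside 19.9% and 17.1%). For a member that stays lower in Tregs, such as Oas2, a shift up is a narrower gap. Oas2 (0.92 ± 0.16), Ifi27l2a (0.77 ± 0.14), Ifi213 (0.75 ± 0.14) and Phf11b (0.71 ± 0.17) moved most. Of the 22 calls 13 remained in every setting, and those of Cmpk2, Ifi35, Irf7, Irf9, Oas1a, Oasl2, Rsad2, Xaf1 and Zbp1 did not, so no shift down remained. Members shifted up were Oas2, Ifi27l2a, Ifi213, Phf11b, Ifi206, Oas3, Slfn5, Ifih1, Dtx3l, Parp9, Cmpk2, Parp14, Zbp1, Ifi203, Oas1a, Trim30a, Rsad2, Xaf1 and Irf9, and those shifted down Oasl2, Irf7 and Ifi35. Without the mouse block the counts were 13 higher and 0 lower (32.5% and 0%, beside 12.9% and 10.7%), and by total counts without TMM 17 higher and 6 lower (42.5% and 15.0%, beside 14.0% and 23.3%). For IL-2 mice total counts gave 24 higher and 10 lower (60.0% and 25.0%, beside 30.7% and 48.5%). Without isotype PBS mouse 1 the counts were 14 higher and 7 lower in PBS mice, 24 and 10 in IL-2 mice and 17 and 3 for the difference. Without MHCII-Block WT mouse 1 they were 14 and 9, 24 and 10, and 19 and 5. Over all libraries B cell markers summed to 24.4 to 567 CPM in Tregs and 103 to 860.0 CPM in Tcons, myeloid markers to 13.5 to 579 CPM in Tregs and 31.7 to 664 CPM in Tcons, and conventional dendritic cell markers to 3.76 to 84.2 CPM in Tregs and 30.8 to 207 CPM in Tcons. Plasmacytoid dendritic cell markers summed to 8.61 to 23.3 CPM in Tregs and 23.7 to 56.9 CPM in Tcons, and NK cell markers to 6.43 to 41.6 CPM in Tregs and 28.7 to 132 CPM in Tcons. Their part in these differences was not tested.

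The genes upstream of the 40 were read from lists of their own. Of 21 interferon genes all had a row, and Ifng and Ifnz passed the filter in Tregs. No interferon alpha or beta gene exceeded 0.954 CPM in any library. Ifnz, a type I interferon gene that reached at most 1.24 CPM, was higher with the block in PBS (1.83) and WT mice (1.18, edgeR adjusted p = 0.0108 and 0.036) and not called in H16R (0.65) and 3x mice (0.72). Ifnar1, a chain of the receptor, was higher with WT, H16R and 3x in isotype mice (0.39, 0.51 and 0.48) and lower with the block in those treatments (-0.25, -0.26 and -0.41). In PBS mice it was not called with the block (0.02).

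Calls with the block in these lists are given for PBS, WT, H16R and 3x Tregs in that order, where 6.00%, 18.2%, 15.4% and 27.2% of all tested genes were called higher and 8.13%, 15.3%, 15.2% and 26.9% lower. Of 36 further interferon-induced genes, 33 were tested. Of these 6, 5, 9 and 11 were called higher (18.2%, 15.2%, 27.3% and 33.3%) and 0, 3, 2 and 4 lower (0.0%, 9.1%, 6.1% and 12.1%). Of 22 genes of the interferon gamma type, such as guanylate-binding proteins, 22 were tested, and 5, 3, 12 and 18 were called higher (22.7%, 13.6%, 54.5% and 81.8%) and 1, 5, 1 and 1 lower (4.5%, 22.7%, 4.5% and 4.5%). Ifng itself was higher with the block in WT, H16R and 3x mice (0.34, 0.91 and 0.67) and not called in PBS mice (-0.29, edgeR adjusted p = 0.126). Of 9 receptor and kinase genes, 8 of them tested, 0, 1, 0 and 0 were called higher (0.0%, 12.5%, 0.0% and 0.0%) and 2, 3, 4 and 5 lower (25.0%, 37.5%, 50.0% and 62.5%). Of 10 sensors and adaptors, 9 of them tested, 1, 3, 3 and 5 were called higher (11.1%, 33.3%, 33.3% and 55.6%) and 0, 2, 1 and 1 lower (0.0%, 22.2%, 11.1% and 11.1%).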

How the data were processed

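RNA-seq of 32 Treg and 16 Tcon libraries was used. According to the methods, reads were aligned with OSA in Omicsoft Array Suite to mouse genome B38, and the authors deposited expected counts per gene estimated by RSEM and the matching FPKM values. In the count matrix 72.6% of the values above 0 were exactly whole numbers, and expected counts were rounded to whole numbers here. A further 3 deposited tables hold the authors' own DESeq2 comparisons (fold changes, test statistics and adjusted p-values) and were not used. Whether counting used strand is not given in the sources used here. No 2 libraries held identical values.

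Groups came from the sample labels. Counts were tested with edgeR 4.0.16 (R 4.3.3) by the quasi-likelihood test after TMM scaling, for protein-coding genes with CPM above 0.5 in at least 4 fitted libraries and no empty cell, with Benjamini-Hochberg adjustment over all tested genes and a threshold of 0.1. Log2 fold changes carry SE. Treg contrasts came from 1 fit over 8 groups, Tcon contrasts from antibody plus treatment, and Treg against Tcon from a fit with mouse as a block, since the labels give the mouse of each library. Alternatives were DESeq2 1.42.0, total counts without TMM, no low-count filter, limma 3.58.1 on log2(FPKM + 1), empty cells read as 0, only the groups compared, a replicate block, leaving out each library or mouse, and, added after seeing the data, isotype WT Treg replicates 3a and 3b summed to 1 library.

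Totals of 18.28 M counts or more limit precision mainly for genes near 1 CPM. The members and lists were chosen with earlier results of these data known, so a members' share set beside the background is a description. Every member is accounted for by its calls. Library values are given in at least 1 comparison for Irf7, Isg15, Ifit1, Ifit3, Oasl2, Usp18, Stat2, Irf9, Bst2, Ifi27l2a and Isg20 and for the member with the largest rise or fall in each contrast with PBS or between antibodies in Tregs. Genes outside the 40 come from the pathway and marker lists alone. A list of regulators of the response is not reported here.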

Additional observations from a re-analysis of the deposited data

Results flagged for a closer look

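Within groups of 4 Treg libraries, single values stood apart from the other 3 by Dixon's 95% criterion in 9 of 136 groups checked over 17 members (6.6%), and chance flags about 1 in 20. MHCII-Block 3x replicate 2 was high for Ifit1 (73.2 CPM), Ifit3 (35.5 CPM) and Ifit3b (7.78 CPM). Isotype 3x replicate 4 was low for Stat2 (86.7 CPM). MHCII-Block WT replicate 2 was high for Ifi27l2a (222 CPM) and isotype WT replicate 3b low for Oas1a (62.6 CPM). Isg20 stood apart in isotype H16R replicate 3 (49.3 CPM) and MHCII-Block WT replicate 3 (36.1 CPM), and Ifi208 in MHCII-Block PBS replicate 3 (15.0 CPM).

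The change from PBS differed between the antibody arms by a test of the difference itself (edgeR interaction, MHCII-Block less isotype, log2). For WT it was -0.75 for Ifi27l2a, -0.53 for Isg15, -0.45 for Oas1a, -0.39 for Rtp4, -0.38 for Phf11b, -0.34 for Zbp1, -0.29 for Dtx3l, -0.23 for Parp9, -0.22 for Irf9 and 0.86 for Oasl2. For H16R it was -0.87 for Ifit1, -0.58 for Slfn5, -0.56 for Ifi213, -0.54 for Ifi208, -0.42 for Ifit1bl1, -0.41 for Isg15, -0.41 for Rtp4, -0.32 for Ifi206, -0.29 for Ifit2 and -0.25 for Ifi203. For 3x the lower values were -1.26 for Ifit1, -0.84 for Ifit3b, -0.69 for Ifi208, -0.62 for Ifit3, -0.61 for Ifi213, -0.53 for Ifit2, -0.50 for Ifit1bl1, -0.46 for Rtp4, -0.46 for Slfn5, -0.33 for Ifi206, -0.33 for Slfn8 and -0.32 for Ifi203. The higher values for 3x were 0.64 for Mx1, 0.64 for Ifih1, 0.50 for Zbp1, 0.46 for Oas3, 0.39 for Isg20, 0.33 for Parp9, 0.31 for Phf11b and 0.18 for Ifi35.

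The Treg to Tcon difference also changed between PBS and IL-2 mice by a test of that change. It was 0.92 for Oas2, 0.77 for Ifi27l2a, 0.75 for Ifi213, 0.71 for Phf11b, 0.56 for Ifi206, 0.55 for Oas3, 0.54 for Slfn5, 0.48 for Ifih1, 0.44 for Dtx3l and 0.40 for Parp9. Smaller positive values were 0.38 for Cmpk2, 0.37 for Parp14, 0.36 for Zbp1, 0.33 for Ifi203, 0.33 for Oas1a, 0.32 for Trim30a, 0.31 for Rsad2, 0.28 for Xaf1 and 0.22 for Irf9. Negative values were -0.48 for Oasl2, -0.15 for Irf7 and -0.12 for Ifi35. Each of these 3 calls was lost in some setting, as were those of Cmpk2, Irf9, Oas1a, Rsad2, Xaf1 and Zbp1 among the positive values.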

How the results depend on the processing

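No call of a member changed direction. Of 449 calls 341 remained in every setting run, and DESeq2 kept all 449. Calls no longer past the threshold numbered 17 with total counts without TMM, 26 without the low-count filter, 27 with limma on log2(FPKM + 1), 25 with only the groups compared, 1 with empty cells read as 0 and 7 with isotype WT replicates 3a and 3b summed, an alternative chosen after seeing the data.

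With only the groups compared, 7 members were called between MHCII-Block and isotype PBS Tregs, 18 between H16R and WT with isotype, and 6 in the WT interaction. Leaving out 1 library gave 7 to 13 members for MHCII-Block against isotype in PBS Tregs, 5 to 12 for the WT interaction, 4 to 13 for the H16R interaction, and in Tcons 4 to 14 for WT, 4 to 16 for H16R and 2 to 10 for 3x. The other counts stayed within 1.5 times.

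Same-numbered libraries of different groups were not paired by any label, and in 0 of 14 Treg contrasts did every pair's deviations from the group means correlate over 0.1 (13 of 52 pairs, r from -0.502 to 0.382). A replicate block ended 9 calls and gave 11 members for MHCII-Block against isotype in PBS Tregs and 7 for the WT interaction. Without the mouse block, the Treg to Tcon difference between IL-2 and PBS mice held 13 calls.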

Other observations

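Across the 32 Treg libraries the deviations of the 40 members' log2 CPM from their group means correlated with a median r of 0.45 over 780 pairs of genes, from -0.43 to 0.91, and 87 pairs were above 0.7. Irf7 and Dhx58 were closest (0.91), followed by Oas3 and Xaf1 (0.89). The genes share libraries and scaling, so these values are a description.

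In mice that gave both cell types, the log2 difference between the 2 mice of a group was taken in each cell type. Between the 2 MHCII-Block PBS mice it had the same sign in Tregs and Tcons for 40 of 40 members. In the remaining groups the number was 28 with isotype PBS, 29 with isotype WT, 26 with isotype H16R, 25 with isotype 3x, 31 with MHCII-Block WT, 29 with MHCII-Block H16R and 28 with MHCII-Block 3x.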
